A study of Mus musculus with 9 samples.

Results

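The wildtype baseline of erythroblasts from mouse spleen was described from 3 RNA sequencing libraries, out of 9 libraries in the study. The cells were isolated by flow cytometric sorting for 2 surface antigens, the transferrin receptor CD71 and Ter119, which marks erythroid cells. The members were chosen by label alone, as the 3 libraries titled Wildtype. Genes were then ranked by their mean value over these libraries. The deposited table listed 20368 genes, of which 4649 had a wildtype mean of at least 10 FPKM (fragments or reads per kilobase of gene, a level per gene length and library size, inferred from the values because the header names no unit). These 4649 genes were used for statements on steadiness, except where a different number of genes is given.

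All mice were C57BL/6 animals aged 4 weeks. The wildtype mice carried no null allele of Dhh, which encodes the secreted ligand Desert hedgehog. The remaining libraries were 3 from Dhh+/- mice, called heterozygous here, and 3 from Dhh-/- mice, called knockout. Total RNA of the sorted cells, which the labels name erythroblast population II, was sequenced in every group. No label ties a library to a single animal, so the spread given here is the spread between libraries and may in part be technical.

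Erythroblasts are the nucleated precursors of red blood cells. As they mature they make hemoglobin from globin chains and heme, build the membrane skeleton of the red cell, divide a last few times, and dispose of most other proteins and organelles. CD71 carries iron-loaded transferrin into the cell for heme synthesis and is lost late in maturation. In the mouse, the spleen remains a site of red cell production after birth.

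The sort label was checked against the erythroid markers, and each was present in every wildtype library. Hbb-bs, an adult beta-globin gene, was measured at 8711, 7642 and 5453 FPKM in replicates 1, 2 and 3. Alas2, the erythroid enzyme of the first step of heme synthesis, was measured at 7090, 6379 and 4069 FPKM. Slc4a1, the anion exchanger band 3 of the red cell membrane, was measured at 3689, 3426 and 3323 FPKM. Those genes held ranks 1, 2 and 4 of the whole table. Tfrc, which encodes CD71 itself, was measured at 474.7, 481.3 and 474.0 FPKM and held rank 133. Klf1, an erythroid transcription factor, was measured at 319, 409 and 404 FPKM. Gata1, the central erythroid transcription factor, was measured at 184, 219 and 254 FPKM. No library lacked any of these markers, and the lowest, Gata1, still held rank 357.

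Depth differed between the libraries, and so did the level of marker genes of other cells. The wildtype libraries held 8.66, 9.66 and 13.20 M reads, as recovered from the steps of the deposited values, within a series range of 7.05 to 14.23 M. Replicate 3 stood apart from the other pair. Over the 4649 genes, Pearson's correlation of log2(FPKM + 1) was 0.97 between replicates 1 and 2, 0.91 between 2 and 3 and 0.85 between 1 and 3. These are correlations across genes, which are not independent. The median gene was 0.23 higher in replicate 3 than the mean of the other pair on the log2(FPKM + 1) scale, so differences of gene lists are read below beside that value. Marker genes of B cells, T and NK cells, macrophages, neutrophils, megakaryocytes, basophils and stroma, 113 genes in the table, summed to 1.28% of FPKM in replicate 1, 0.98% in replicate 2 and 0.19% in replicate 3. Replicate 3 was thus both the deepest library and the one with the lowest sum of these markers, though not for the megakaryocyte list. The part of depth or of these markers in the results below was not tested. Dhh was listed at 0 in all wildtype and all knockout libraries, so its level gave no check of the genotype labels.

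The transcript pool was concentrated in few genes. The 10 most abundant genes held 9.66%, 9.09% and 6.96% of summed FPKM in the 3 libraries, or 8.57% ± 1.43 (SD, n = 3). The 100 most abundant held 30.5%, 29.6% and 25.8%, or 28.6% ± 2.46 (SD, n = 3), and 30.2% without replicate 3. Summed FPKM reached 50% with 357 genes and 90% with 3165 genes. Only 36 genes had a mean of at least 1000 FPKM, 801 had at least 100 and 9237 had at least 1. At the other end, 6485 genes were listed at 0 in all 3 libraries. All of the 100 most abundant genes were protein-coding, and 65 of them belonged to a gene list described below: 22 to the ribosomal proteins, 8 to the ubiquitin list, 7 to the red cell membrane, 6 to heme synthesis and 4 to the globins.

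**Figure D1:**
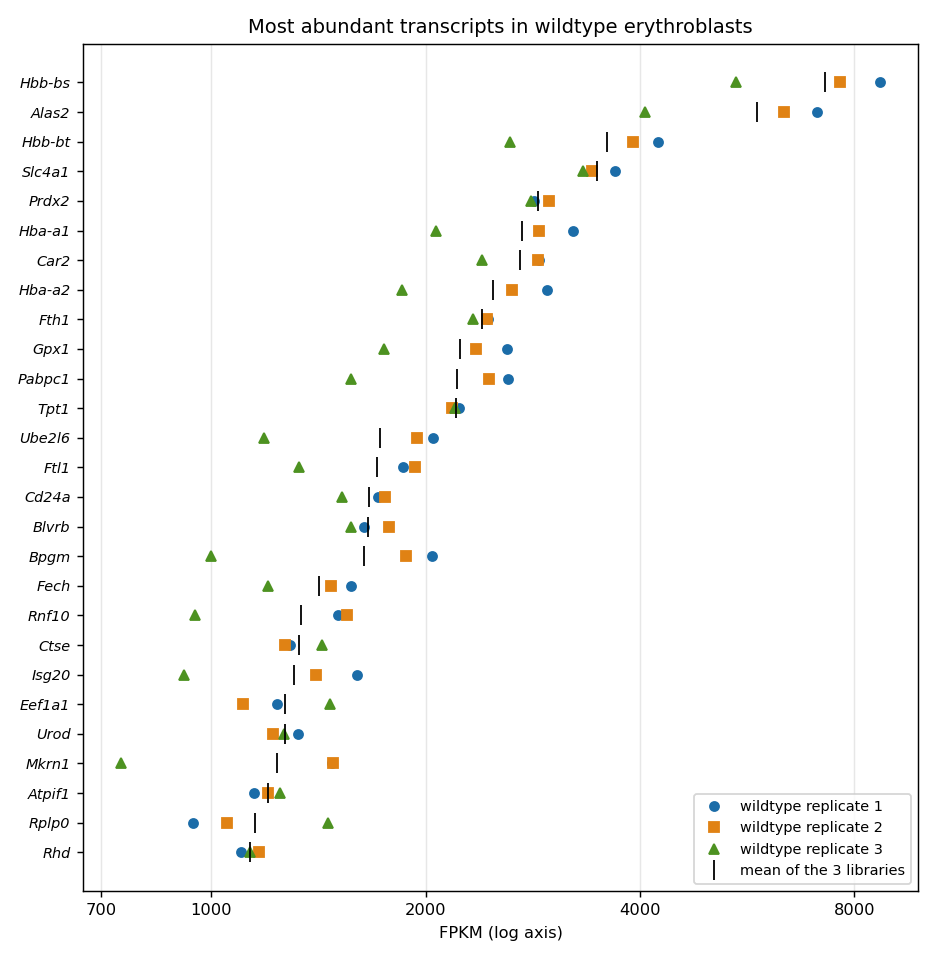
The reported genes among the 30 with the highest wildtype mean, 27 in all, from the top down. The x axis is FPKM on a log axis, each marker is 1 library and the bar is the mean of the 3. Hbb-bs leads with 8711, 7642 and 5453 FPKM, and replicate 3 is the lowest library for all 4 globin genes, Alas2, Bpgm and Mkrn1, whereas the 3 libraries nearly coincide for Tpt1 and Rhd.

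Adult globin genes headed the table. Hbb-bt, the second adult beta-globin gene, was measured at 4247, 3913 and 2624 FPKM and held rank 3. The alpha-globin gene Hba-a1 was measured at 3226, 2889 and 2070 FPKM, and Hba-a2 at 2962, 2648 and 1850 FPKM. In each of the 4 genes replicate 1 was highest and replicate 3 lowest as deposited, and under quantile normalization replicate 3 was lowest in 3 of 4. The coding sequences of Hbb-bs and Hbb-bt were identical at 443 of 444 bases and those of Hba-a1 and Hba-a2 at 428 of 429. How reads were split within each pair is therefore uncertain, and how reads matching both copies were treated is not given. Recovered reads of Hbb-bs were nearly level, at 48315, 47849 and 46596 in replicates 1, 2 and 3. Depth was 8.66, 9.66 and 13.20 M reads. The part of depth in the globin values and their sums was not tested. The 4 genes summed to 4.56%, 4.14% and 2.86% of FPKM. The 4 embryonic globin genes, which are active before birth, summed to 5.76, 5.04 and 5.89 FPKM in all.

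The promoters of the leading genes are shown because both beta-globin genes and Alas2 are textbook targets of GATA1 and KLF1. Each window is the 250 bases before the transcription start site in RefSeq, on build GRCm38.p6, written 5′ to 3′ on the strand of the gene. Capitals mark the erythroid GATA motif AGATAA, the KLF1-type motif CCNCNCCC and the CCAAT box, searched on both strands, so that the CCAAT box also reads ATTGG. No match of one motif overlapped a match of another. The Hbb-bs window lies at chr7:103827929-103828178 (minus strand), the Hbb-bt window at chr7:103813924-103814173 (minus strand) and the Alas2 window at chrX:150547167-150547416 (plus strand).
Hbb-bs: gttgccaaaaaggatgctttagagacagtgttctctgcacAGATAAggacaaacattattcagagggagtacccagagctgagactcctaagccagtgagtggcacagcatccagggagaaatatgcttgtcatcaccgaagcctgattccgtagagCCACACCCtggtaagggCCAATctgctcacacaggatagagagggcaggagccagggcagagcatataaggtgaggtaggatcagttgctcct
Hbb-bt: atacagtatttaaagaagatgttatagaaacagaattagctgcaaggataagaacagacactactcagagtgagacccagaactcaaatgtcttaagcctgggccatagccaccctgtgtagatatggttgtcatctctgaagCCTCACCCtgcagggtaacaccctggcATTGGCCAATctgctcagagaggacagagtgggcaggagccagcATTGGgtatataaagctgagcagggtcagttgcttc
Alas2: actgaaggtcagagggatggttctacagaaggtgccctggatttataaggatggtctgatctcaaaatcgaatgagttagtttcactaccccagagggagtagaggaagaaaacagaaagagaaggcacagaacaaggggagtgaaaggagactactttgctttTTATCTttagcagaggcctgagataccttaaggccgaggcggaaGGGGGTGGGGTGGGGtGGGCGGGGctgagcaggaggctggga
In the Hbb-bs window the match to AGATAA began 210 bases, that to CCNCNCCC 93 bases and that to CCAAT 76 bases before the start. Hbb-bt held CCNCNCCC at 107 bases, 3 matches to CCAAT and none to AGATAA. Alas2 held AGATAA at 86 bases and 4 overlapping or adjacent matches to CCNCNCCC within 42 bases of the start. A window was found for 75 of the 100 most abundant genes, for 3672 of the 4649 genes and for 27025 genes in all. AGATAA was found in 13.3% of the windows of the 100 most abundant genes, in 7.14% for the 4649 genes and in 11.4% over all genes. CCNCNCCC was found in 70.7%, 67.8% and 48.5%, and CCAAT in 56.0%, 42.2% and 37.5%. Such matches describe letters in these windows and show no binding.

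Heme synthesis, the enzymes from Alas2 to Fech with their mitochondrial carriers, was the other arm of hemoglobin production among the top genes. Of 13 genes in the list, 12 passed 10 FPKM, and the 13 together held 3.89%, 3.81% and 3.09% of FPKM. Fech, which inserts iron into the ring, was measured at 1569, 1473 and 1201 FPKM. Urod was measured at 1323, 1219 and 1264 FPKM. The enzymes were thus unequal in level, with Alas2 at a mean of 5846 FPKM ± 1579 (SD, n = 3) and Urod at 1268 ± 52.4. Tmem14c, a porphyrin transporter of the mitochondrion, ran against Alas2 across the libraries, with 327, 398 and 648 FPKM. The housekeeping enzyme of the same first step, Alas1, was low, with 5.42, 4.65 and 2.96 FPKM.

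Iron handling was led by storage and import into the mitochondrion. Fth1, the ferritin heavy chain, was measured at 2444, 2436 and 2328 FPKM, and Ftl1, its light chain, at 1858, 1935 and 1328 FPKM. Slc25a37, mitoferrin-1, was measured at 942, 897 and 758 FPKM. Slc40a1, the iron exporter ferroportin, was the most variable gene of the list, with 71.1, 60.0 and 32.9 FPKM, and is also made by splenic macrophages.

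Among the wildtype libraries, the genes of the red cell membrane and its skeleton formed the steadiest erythroid group. A gene was called steady when its highest library was at most 1.2 times its lowest on FPKM + 1, and variable when it was at least 2 times the lowest. Of the 4649 genes, 22.8% were steady and 9.74% variable, with a median log2 range of 0.45, which is a ratio of 1.37 between the highest and the lowest library. Of the 28 membrane genes at 10 FPKM or more, 18 were steady and 0 variable, with a median log2 range of 0.20. The other genotypes did not share this, with a median range of 0.51 among knockout libraries, beside 0.39 for all genes. Among heterozygous libraries it was 0.22 beside 0.23. Between replicates 1 and 2 alone, 26 of 28 lay within 1.2 times, against 69.4% of all genes. Rhd, of the Rh blood group complex, was measured at 1101, 1165 and 1135 FPKM. Sptb, a chain of spectrin, was measured at 457, 500 and 468 FPKM. Ank1, the ankyrin that ties spectrin to band 3, was measured at 432, 447 and 472 FPKM. The widest ranges of the list were those of Xk, with 16.8, 20.9 and 28.6 FPKM, and of Epb4.1, which encodes a protein that joins spectrin to actin, with 1179, 1110 and 725 FPKM.

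Other abundant transcripts of the red cell served gas transport and protection from oxidation. Prdx2, a peroxiredoxin, was measured at 2836, 2980 and 2812 FPKM and held rank 5. Car2, carbonic anhydrase 2, was measured at 2884, 2873 and 2396 FPKM. Car1, a second carbonic anhydrase, went the other way, with 215, 204 and 418 FPKM. Gpx1, a glutathione peroxidase, was measured at 2605, 2353 and 1749 FPKM. Bpgm, which makes the 2,3-bisphosphoglycerate that lowers the oxygen affinity of hemoglobin, was measured at 2044, 1877 and 998 FPKM and was the only gene above 1000 FPKM in the mean that was variable. The other steps of glycolysis lay far lower, with Gapdh at 217, 204 and 277 FPKM. Of the 13 glycolytic genes at 10 FPKM or more, 6 were variable and 0 steady, where 9.74% and 22.8% of all genes were.

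Erythroid transcription factors were present at moderate levels and in close proportion. The 21 factors in the table held 0.73%, 0.82% and 0.82% of FPKM. Of these, 18 passed 10 FPKM, with 6 steady (33.3%) and 1 variable (5.56%), where 22.8% and 9.74% of all genes were. E2f4 and E2f2, which act in the cell cycle of erythroblasts, averaged 371 and 362 FPKM and stood beside Klf1 at the head of the list. Gfi1b, a repressor of the lineage, was the variable one, with 75.8, 94.9 and 160 FPKM. The median of the 18 factors in replicate 3 lay 0.09 above the mean of the other pair as deposited. After quantile normalization it lay 0.02 below, so no direction is given. Of 16 genes known from erythroid progenitors, 6 passed 10 FPKM, with mean levels of 279 FPKM for Car1, 113 FPKM for Npm1 and 74.4 FPKM for Cdk4. Others of them were lower. Myb was measured at 4.42, 6.94 and 3.86 FPKM and Gata2 at 6.18, 0.91 and 0.28 FPKM. Epor, the erythropoietin receptor, was measured at 198, 256 and 252 FPKM, and Bcl2l1, a survival gene downstream of it, at 351, 307 and 228 FPKM.

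**Figure D2:**
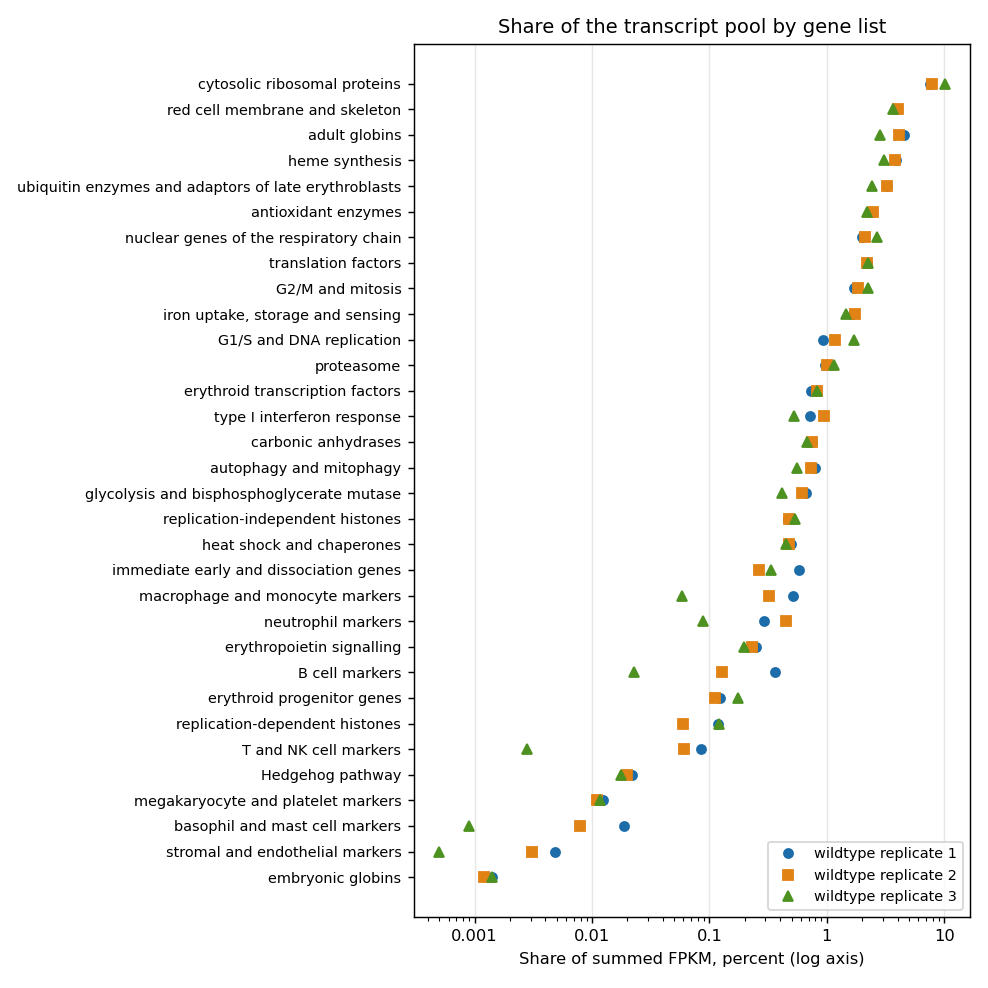
Share of summed FPKM held by each gene list in each wildtype library, in percent on a log axis, with the largest list at the top. Ribosomal proteins hold 7.63%, 7.81% and 10.2%, the globin list holds 4.56%, 4.14% and 2.86%, and the lists of B cell, T and NK cell, macrophage, neutrophil and basophil markers are widely spread with replicate 3 lowest.

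Ribosomal protein genes were the largest family by share, with 7.63%, 7.81% and 10.2% of FPKM. Of 83 in the table, 80 passed 10 FPKM. Rplp0, of the ribosomal stalk, was measured at 941, 1052 and 1459 FPKM, and Rpl41 at 1046, 1053 and 1248 FPKM. Replicate 3 was highest in 79 of the 80, where 64.1% of all genes were highest in that library. Their median excess in replicate 3 over the other pair was 0.42 on the log2 scale, beside 0.23 for all genes, and 0.36 beside 0.12 after quantile normalization. Without replicate 3 the family was level, since 77 of 80 lay within 1.2 times between replicates 1 and 2. Pabpc1, which binds the poly(A) tail of mRNAs, was measured at 2611, 2457 and 1569 FPKM and ran against the ribosomal proteins. Eef1a1, an elongation factor, was measured at 1237, 1107 and 1465 FPKM.

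The ubiquitin system, which clears proteins and organelles late in maturation, supplied 8 of the top 100 genes. Ube2l6, a conjugating enzyme, was measured at 2048, 1947 and 1187 FPKM, and Rnf10, a ligase, at 1504, 1550 and 949 FPKM. Mkrn1, a further ligase outside the list, was measured at 1479, 1480 and 747 FPKM. Of 30 genes of the list at 10 FPKM or more, 15 were steady and 1 was variable, where 22.8% and 9.74% of all genes were. Lowest in replicate 3 were 20 of the 30, where 24.5% of all genes were lowest. Autophagy genes were ordered alike, with 12 of 15 highest in replicate 1, against 22.5% of all genes. Bnip3l, a receptor for the removal of mitochondria, was measured at 520, 463 and 312 FPKM. Gabarapl2, of the autophagosome membrane, was measured at 595, 557 and 315 FPKM. Proteasome genes ran the other way, with 38 of 43 highest in replicate 3, where 64.1% of all genes were. Without that library 36 of 43 lay within 1.2 times, where 69.4% of all genes did. Psmd4, a subunit that binds ubiquitin, was nevertheless level at 238, 235 and 223 FPKM.

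Cell cycle genes showed the cells to hold transcripts of both replication and mitosis, at different levels per library. All 37 genes of G1/S and DNA replication at 10 FPKM or more were lowest in replicate 1 and highest in replicate 3, where 53.5% of all genes were lowest in replicate 1. Pcna, the sliding clamp of DNA polymerase, was measured at 541, 629 and 886 FPKM. Mcm7, of the replicative helicase, was measured at 247, 313 and 525 FPKM. Gins2, which joins that helicase, was measured at 18.2, 23.8 and 46.0 FPKM. Of the 37 genes, 14 were variable (37.8%) and 0 steady, where 9.74% and 22.8% of all genes were. Without replicate 3 none was 2-fold apart, where 1.53% of all genes were. The 37 were still not level between replicates 1 and 2. Only 12 of them (32.4%) lay within 1.2 times, where 69.4% of all genes did. None was higher in replicate 1, where 39.6% of all genes were. The median excess in replicate 3 was 0.74 on the log2 scale as deposited and 0.63 after quantile normalization, under which 36 of 37 were highest there.

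Genes of G2/M and mitosis varied less than those of G1/S, with a median log2 range of 0.50 beside 0.92. Over all genes that median was 0.45. All 40 passed 10 FPKM, and 38 were highest in replicate 3, where 64.1% of all genes were. Of the 40, 0 were variable, where 9.74% of all genes were. Steady genes numbered 5 (12.5%), where 22.8% of all genes were steady. Ube2c, a conjugating enzyme of the anaphase-promoting complex, was measured at 951, 938 and 1046 FPKM, and Mki67, a marker of cycling cells, at 578, 561 and 615 FPKM. Pttg1, securin, was the exception with 145, 138 and 74.2 FPKM. The genes of the respiratory chain encoded in the nucleus were highest in replicate 3 in 71 of 76 cases, against 64.1% of all genes. Among replication-dependent histones, whose mRNAs lack a poly(A) tail, 7 of 60 passed 10 FPKM. Hist1h2bg was measured at 92.4, 18.8 and 77.6 FPKM, with replicate 2 apart. Replicate 2 was also its lowest library among heterozygous (82.0, 21.6 and 27.3 FPKM) and knockout libraries (59.7, 19.4 and 45.0 FPKM).

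**Figure D3:**
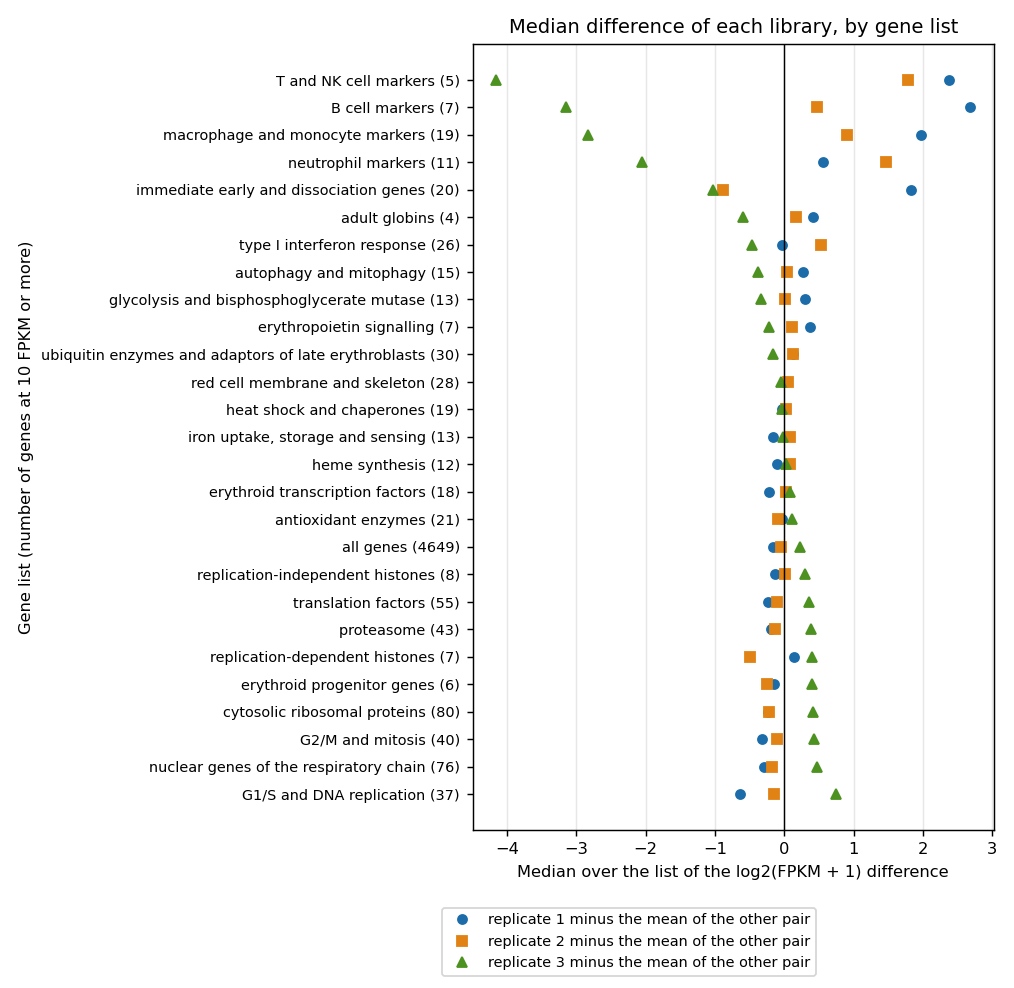
Median over each gene list of the log2(FPKM + 1) difference between 1 wildtype library and the mean of the other pair, with the number of genes at 10 FPKM or more in parentheses. G1/S genes lie at 0.74 in replicate 3 and all genes at 0.23, whereas macrophage markers lie at -2.83. In replicate 1, immediate early genes lie at 1.83, below B cell (2.68), T and NK cell (2.37) and macrophage markers (1.97).

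Some interferon-response genes were abundant in the wildtype cells. Of the 34 in the table, 2 were among the 100 most abundant genes, and the median of their means was 27.5 FPKM. Rsad2, the antiviral enzyme viperin, was measured at 832, 851 and 473 FPKM, Isg15, a ubiquitin-like modifier, at 637, 887 and 370 FPKM, and Irf7, a transcription factor of the response, at 348, 550 and 271 FPKM. Rsad2 held rank 68 of the table. Of 26 genes at 10 FPKM or more, 25 were highest in replicate 2, where 13.4% of all genes were highest. Variable were 8 of the 26 (30.8%), where 9.74% of all genes were. Oas2, an RNA sensor, was the most variable of them with 12.5, 25.3 and 6.41 FPKM. All 34 genes of the list in the table held 0.72%, 0.94% and 0.53% of FPKM. The promoter windows of Rsad2 (chr12:26456453-26456702, minus strand) and Isg15 (chr4:156200819-156201068, minus strand) are shown as above, with capitals on the pattern of the interferon-stimulated response element, which is GAAA, then any 2 bases, then GAAA again, on either strand.
Rsad2: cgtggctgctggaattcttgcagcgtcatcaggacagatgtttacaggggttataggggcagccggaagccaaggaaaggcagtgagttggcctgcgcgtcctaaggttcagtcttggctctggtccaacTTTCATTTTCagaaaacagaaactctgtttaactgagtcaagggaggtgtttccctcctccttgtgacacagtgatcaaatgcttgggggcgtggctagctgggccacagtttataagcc
Isg15: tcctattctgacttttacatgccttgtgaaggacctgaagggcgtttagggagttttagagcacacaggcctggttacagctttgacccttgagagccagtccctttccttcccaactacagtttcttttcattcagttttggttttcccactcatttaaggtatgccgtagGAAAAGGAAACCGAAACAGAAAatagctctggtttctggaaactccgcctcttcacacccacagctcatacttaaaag
Rsad2 held 1 match and Isg15 held 3 that overlap each other. The pattern was found in 8 of 19 windows of the list (42.1%), in 3.60% for the 4649 genes and in 3.46% over all genes.

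Among single genes, the steadiest were found at all levels of abundance. Vcp, an ATPase that extracts ubiquitinated proteins, led with 136.4, 136.7 and 136.1 FPKM, followed by Nup133 of the nuclear pore with 24.7, 24.9 and 24.8 FPKM and Myo9b with 23.0, 22.9 and 22.8 FPKM. Tfrc held place 7 of 4649 in steadiness, with a coefficient of variation of 0.85%, and it encodes the antigen used for the sort. Its log2 range was 0.02 among wildtype libraries, 0.35 among heterozygous and 0.76 among knockout libraries. Tpt1 was the steadiest of the 15 genes with the highest means, with 2231, 2177 and 2201 FPKM. Steadiness in the other genotypes was close to that of all genes. Of the 1062 steady genes, 316 (29.8%) were steady among knockout libraries, where 29.3% of all genes were, and 676 (63.7%) among heterozygous libraries, where 58.9% were. The SD between libraries was at or below the SD expected from read counts in 153 of 4646 genes with reads in all 3 libraries (3.29%), and the median gene varied 4.97 times more than counting alone gives. All 153 were steady genes, 14.4% of the 1062, and 14 of the 15 steadiest were among them, so their order lies within counting error.

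The variable genes were for the most part genes in which replicates 1 and 3 lay at the 2 ends. Of 453 variable genes, 307 were highest in replicate 1, 319 were lowest in replicate 3, and 293 were both. Over all 4649 genes, 22.5% were highest in replicate 1 and 24.5% lowest in replicate 3. With 1 library left out, the limit of 10 FPKM was applied to the mean of the remaining pair. Without replicate 3, 88 of 4644 genes were variable, and 71 of them were among the 453. Without replicate 1 there were 213 of 4602, and without replicate 2 there were 413 of 4668. The share of variable genes fell with abundance, from 14.4% at 10 to 20 FPKM to 2.78% at 1000 FPKM and above. At the limit, Coq7 (7.41, 9.49 and 15.9 FPKM) lay just inside and Samhd1 (77.2, 65.1 and 38.1 FPKM) just outside.

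**Figure D4:**
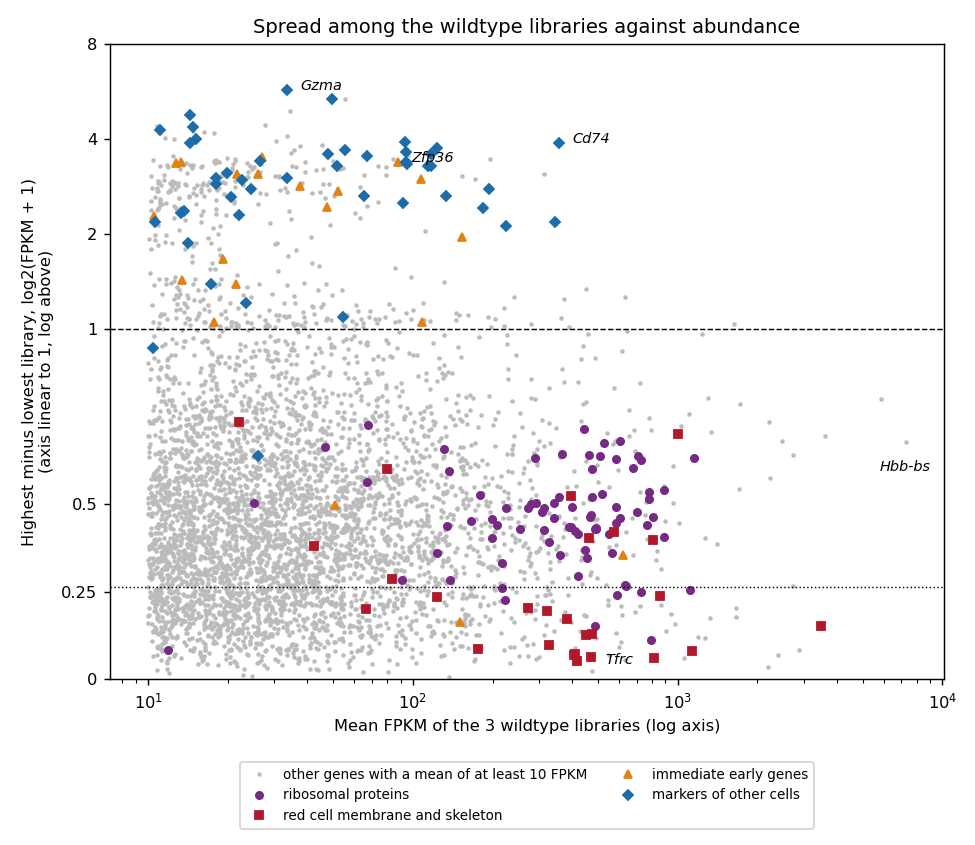
Log2 range over the 3 wildtype libraries against mean FPKM on a log axis, for the reported genes with a mean of at least 10 FPKM. The y axis is linear to 1 and logarithmic above, the dashed line is the 2-fold limit and the dotted line the 1.2-fold limit. Markers of other cells and immediate early genes lie mostly above the dashed line, with Gzma at 5.73, and the red cell membrane genes lie at or below a range of 0.73.

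Genes of other blood cells were frequent among the 20 most variable genes. Gzma, a protease of cytotoxic lymphocytes, was measured at 70.1, 30.2 and 0.34 FPKM. Ccl3, an inflammatory chemokine, was measured at 153, 9.69 and 2.75 FPKM. Cd79a, of the B cell receptor, was measured at 34.0, 9.15 and 0.28 FPKM. Replicate 3 was lowest in each of them. Of the 113 genes in the 7 lists of other cells, 45 passed 10 FPKM, and since most did so through their level in replicates 1 and 2, the limit itself favours a wide range. Of these, 43 were variable and 44 were lowest in replicate 3, where 9.74% and 24.5% of all genes were. The 113 genes summed to 5378 FPKM in replicate 1, 4025 in replicate 2 and 776 in replicate 3, and 7 of the 113 were listed at 0 in all 3 libraries. Fewer cells of a type and less RNA per cell cannot be told apart in sorted bulk samples.

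The other-cell lists did not order the libraries alike. Over all 4649 genes, 22.5% were highest in replicate 1 and 13.4% in replicate 2. Megakaryocyte and platelet markers summed to 52.1, 45.8 and 49.2 FPKM, so replicate 2 was the lowest for that list. All 19 macrophage markers at 10 FPKM or more were highest in replicate 1, including Csf1r, the receptor for the macrophage growth factor, with 216, 117 and 17.1 FPKM, and the complement gene C1qa with 164, 108 and 12.2 FPKM. All 7 genes of the B cell list were highest in replicate 1 as well, led by Cd74, the invariant chain of MHC class II, with 751, 269 and 49.6 FPKM. In the other genotypes the list was not uniform. Cd74 was measured at 360, 361 and 462 FPKM in heterozygous and at 182, 509 and 384 FPKM in knockout libraries. Cd79a was measured there at 17.4, 24.4 and 8.05 FPKM and at 12.5, 16.3 and 5.56 FPKM. All 11 neutrophil markers were highest in replicate 2, such as S100a9 with 375, 539 and 119 FPKM and Ngp with 185, 308 and 56.7 FPKM. Without replicate 3, 6 of the 7 B cell markers and 0 of the 19 macrophage and 11 neutrophil markers were 2-fold apart, where 1.53% of all genes were. Replicates 1 and 2 still differed for the macrophage and neutrophil lists. Within 1.2 times lay 1 of the 19 and 1 of the 11, where 69.4% of all genes did. The median log2 difference of replicate 1 minus replicate 2 was 0.61 for macrophage and -0.68 for neutrophil markers. The defining T cell genes Cd3g, Cd3d and Cd8b1 were listed at 0 in replicate 3, and Cd3g was measured at 14.8 and 18.5 FPKM in replicates 1 and 2. The part of these cells in the spread of the erythroid genes was not tested. Hmox1, heme oxygenase, stood in both the antioxidant and the macrophage list and was measured at 197, 125 and 19.3 FPKM.

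Immediate early genes, which are rapidly induced when cells are stimulated or handled, were mostly highest in replicate 1. Of 20 genes at 10 FPKM or more, 17 were variable and 17 were highest in replicate 1, where 9.74% and 22.5% of all genes were. Fos, of the AP-1 transcription factor, was measured at 252, 39.2 and 30.8 FPKM. Klf2 was measured at 65.7, 10.2 and 4.90 FPKM. Between replicates 1 and 2 alone, 15 of the 20 were 2-fold apart and all 20 were higher in replicate 1, where 1.53% of all genes were 2-fold apart and 39.6% higher in replicate 1. Dusp1, a phosphatase of the same response, differed in its pattern, with 210, 53.7 and 195 FPKM, so that replicate 2 stood apart. Replicate 2 was also its lowest library among heterozygous (92.1, 48.8 and 62.4 FPKM) and knockout libraries (81.2, 53.6 and 92.6 FPKM). Ppp1r15a, the most abundant of the list, was measured at 698, 546 and 617 FPKM and was neither variable nor steady. The stress chaperone Hspa1a, of the heat shock list, was measured at 41.6, 10.4 and 1.36 FPKM, whereas Hspa8 was measured at 431, 463 and 336 FPKM.

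The genes that varied among wildtype libraries often varied among knockout libraries as well. Of the 453, 253 (55.8%) were at least 2-fold apart among knockout libraries, where 6.17% of all genes were, and 52 (11.5%) among heterozygous libraries, where 1.72% were. Of the 253, 225 were highest in knockout replicate 2, and without that library the share was 13.0%. It was 24.1% without knockout replicate 1 and 51.0% without knockout replicate 3. Among heterozygous libraries it fell to 6.18% to 6.40% with any 1 library left out. All 19 macrophage, 11 neutrophil and 7 B cell markers were 2-fold apart among knockout libraries, and 1, 10 and 1 of them among heterozygous libraries. Of the G1/S, interferon and ribosomal protein genes, 0 were 2-fold apart in either group. Their median log2 range was wider among wildtype libraries, with 0.92 for G1/S genes against 0.37 among knockout and 0.17 among heterozygous libraries. No test of that difference was run.

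The abundant transcripts were largely those of the other genotypes. Of the 30 most abundant wildtype genes, 29 were also among the 30 most abundant by the mean of the 6 other libraries, and 94 of the top 100 were shared likewise. Between single libraries the order was looser, and 22 of the 30 were in the top 30 of each wildtype library. A limma fit of log2(FPKM + 1) over all 9 libraries compared wildtype with the mean of heterozygous and knockout. Of 9543 genes tested, 0 passed a Benjamini-Hochberg adjusted p of 0.05 (0% of genes, lowest adjusted p 0.9997), and 75 had an unadjusted p below 0.05. None of the 30 most abundant passed either. All 30 were higher in wildtype, by a median of 0.22 on the log2 scale, where 49.6% of all genes were higher and their median difference was -0.0015. They were chosen by their wildtype mean, which favours that direction. The 95% interval of the difference had a median half-width of 0.37 on the log2 scale over all genes and 0.34 over the 30. It is not adjusted for the 9543 genes tested, whereas calls were. Differences of that size, and larger ones, could therefore be missed with these libraries.

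The Hedgehog pathway, in which a secreted ligand relieves the block that the receptor Ptch1 places on Smo, was at low levels in the wildtype cells. Of 21 genes, 1 passed 10 FPKM, the ubiquitin ligase adaptor Spop with 76.2 FPKM ± 9.57 (SD, n = 3), and 8 were listed at 0 in all 3 libraries, among them the ligands Dhh and Shh and the transcription factors Gli2 and Gli3. The receptor Ptch1 was measured at 2.03, 2.56 and 3.60 FPKM and Sufu, a repressor of the pathway, at 1.81, 2.55 and 1.97 FPKM. Smo, the signal transducer, was measured at 0.46, 0.41 and 0.24 FPKM. Gli1, the usual readout of an active pathway, was measured at 0, 0.08 and 0.02 FPKM.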

How the data were processed

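The authors deposited 1 table with 1 column per library, and its header names no unit. The deposited values are called FPKM here because they behave as fragments or reads per kilobase; which of the pair was counted is not given. Per the submitters' processing notes, TopHat, Picard, DESeq2 and the build mm10 were used, with versions and roles not given in the sources used here. Strandedness and read pairing are not given either, so reads of overlapping, antisense or near-identical genes cannot be told apart. For each of the 14147 genes detected in 2 or more libraries, the FPKM were whole reads (tolerance 0.05 read) divided by a constant per gene and a median-of-ratios size factor. Library depth was recovered from these steps. No mitochondrially encoded gene was analysed here, and some genes are not reported here.

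Symbols and positions came from GENCODE M21 for 20087 rows (98.62%), and promoters from RefSeq (GRCm38.p6). Of the listed genes, 13 found no row. Values were averaged over the wildtype libraries, and spread was the log2 ratio of the highest to the lowest library on FPKM + 1. The genes named were the 30 with the highest mean, the 20 most variable, the 15 steadiest, the markers, up to 3 most abundant and the most variable member of each list, and the Hedgehog genes. Others (the remaining heme, membrane, transcription factor and other-cell genes, Fos, Coq7, Samhd1, Apobec3 and Mt2 among them) were named after their values were seen. The members and all 34 gene lists were chosen with earlier results of these data known. Genotypes were compared with limma 3.58.1 in R 4.3.3 (eBayes with a trend, genes at 1 FPKM or more in at least 3 libraries). The fit was tested on simulated data with a smaller spread than that of these libraries. That test therefore does not give its power here. Everything else ran in Python 3.11.15 (pandas 2.3.3, numpy 2.4.6), and figures were drawn in matplotlib 3.10.9.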

Additional observations from a re-analysis of the deposited data

How the results depend on the processing

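The share of summed values in the 100 most abundant genes was 25.3% with recovered reads, which are not divided by gene length, and 26.4% without the globins. With a mean of at least 1 FPKM as the limit, 1680 genes were variable and 1920 steady, and with 100 FPKM, 41 and 187. Leaving out wildtype replicate 1, 2 or 3 gave 213, 413 or 88 variable genes and 2042, 1454 or 3187 steady genes. The range of a gene over 2 libraries is never wider than over 3, but the counts also depended on which library was left out. Scaling to equal sums, quantile normalization and a pseudocount of 0.1 gave 427 to 480 variable and 998 to 1378 steady genes. Under quantile normalization, 36 of 43 proteasome, 36 of 40 mitotic and 66 of 76 respiratory chain genes were highest in replicate 3, where 53.1% of all genes were. At 100 FPKM, 21.95% of the variable genes were 2-fold apart among heterozygous and 46.3% among knockout libraries. Leaving out 1 library of either group compared, an alternative chosen after seeing the data, gave 6.18% to 33.0% and 13.0% to 70.9%; the cause was not tested. The comparison of wildtype with the other genotypes called 0 genes in limma under all 14 alternatives, with 51 to 319 at an unadjusted p below 0.05. The fit with the replicate number as a block also called 0. Deviations of same-numbered libraries correlated at 0.13, 0.18 and 0.00 between wildtype and heterozygous and at -0.57, 0.51 and 0.33 between wildtype and knockout, so the numbers were not taken to pair wildtype libraries.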

Other observations

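For 99 genes, 76 of them in none of the gene lists, 1 wildtype library lay far from the other pair. These were found by a rule set after seeing the data: at least 1.5 on the log2 scale from the mean of the other pair, with that pair within 1.5-fold. Replicate 3 was lower in 85 genes and higher in 1, replicate 1 was higher in 9 and lower in 1, and replicate 2 was lower in 3.

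Apobec3, a cytidine deaminase that restricts retroviruses, was measured at 96.8, 6.06 and 9.40 FPKM in the wildtype libraries. It was at 103 FPKM in heterozygous replicate 1 and between 6.10 and 7.30 FPKM in the remaining 5 libraries. Mt2, a metallothionein that binds zinc and other metals, was the gene higher in replicate 3, with 8.91, 7.71 and 36.0 FPKM, and it lay between 8.41 and 16.7 FPKM in the 6 heterozygous and knockout libraries. Prg2, the major basic protein of eosinophils, was the gene lower in replicate 1, with 5.22, 20.6 and 15.5 FPKM. It was measured at 5.58, 8.34 and 14.9 FPKM in the heterozygous and at 2.72, 16.3 and 38.3 FPKM in the knockout libraries, where replicate 1 was also the lowest. The cause of these values was not tested.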
